A study of Homo sapiens with 8 samples.

Results

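The aminoacyl-tRNA synthetases are the enzymes that join each amino acid to its transfer RNA. They were taken as the 36 genes of a list of cytosolic and mitochondrial synthetases whose names appear on the array, out of 34809 gene names in all. By name, 20 of them encode cytosolic enzymes and 16, with names ending in 2, encode mitochondrial ones. A level was measurable for 35 of the 36, and 20464 genes were tested in the same fit.

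The RNA came from HuCCT1, an established human cholangiocarcinoma cell line, and every group carried a short hairpin RNA vector. Control cells carried shControl or shNontarget, and BEX2-knockdown sublines carried shBEX2-1 or shBEX2-2, with 2 single-colour Agilent arrays for each vector. Thus 4 control arrays were compared with 4 BEX2-knockdown arrays, to see which genes respond when BEX2 is lowered. BEX2 is a small protein of the brain-expressed X-linked family. The methods describe retroviral delivery of the hairpins and do not say whether a subline grew from 1 clone. The target sequences printed there for the pair of BEX2 hairpins are reverse complements of each other apart from a shift of 1 base, so the sublines do not stand for separate target sites. The labels leave out whether both arrays of 1 vector hold RNA from different cultures, so p-values here measure only the spread between these arrays, which may be technical. All 8 arrays lay on 1 slide and were read in 1 scan, with control arrays in row 1 and knockdown arrays in row 2, so position and group cannot be told apart.

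Cytosolic synthetases charge the transfer RNAs that feed the ribosomes of the cytoplasm, and several of them sit together in the multi-tRNA synthetase complex, held by scaffold proteins. Mitochondrial synthetases are encoded in the nucleus, imported, and charge the transfer RNAs made from the mitochondrial genome. When amino acids run short, uncharged transfer RNA activates the kinase GCN2, translation of the transcription factor ATF4 rises, and ATF4 raises transcription of many cytosolic synthetase genes together with amino acid synthesis and transport genes. ATF4 does so through the C/EBP-ATF response element of their promoters.

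That element gave the letters searched for in promoter sequences here, and whether ATF4 acted through it in these cells was not tested. Its TGATGNAA part was searched on both strands (TTNCATCA on the other strand, a single motif with no second one) in RefSeq promoter windows of build GRCh38.p14, which run from 250 bases before to 50 after a transcription start. All 36 genes matched a current RefSeq entry, 35 by the accession of their probe and 1 by an older symbol, and 30 of them had at least 1 window. The letters occurred in a window of 8 synthetase genes, AARS, CARS, GARS, IARS, MARS, NARS, TARS and YARS2. This is 26.7% of the 30, beside 4.46% of the 27305 genes with a window and 3.62% of all 35116 windows of this length. Of the 8 genes, 7 encode cytosolic enzymes.

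For 6 of these genes, 30 bases centred on the match are shown, so that the letters shared by members that fell (CARS, GARS, MARS and NARS) can be set beside those of members that did not pass the test (TARS and YARS2). The match is in capitals, and each stretch is read along its gene's strand. They lie at chr11:3057407-3057436, minus strand (CARS), chr7:30594834-30594863, plus strand (GARS), chr12:57488053-57488082, plus strand (MARS), chr18:57621804-57621833, minus strand (NARS), chr5:33440956-33440985, plus strand (TARS) and chr12:32756076-32756105, minus strand (YARS2). The CARS and MARS matches span the start, those of NARS and TARS lie just after it, and those of GARS and YARS2 lie before it. CARS, GARS and TARS each have 2 RefSeq windows, of which 1 holds the letters.
CARS: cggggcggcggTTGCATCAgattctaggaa
GARS: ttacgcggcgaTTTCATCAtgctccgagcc
MARS: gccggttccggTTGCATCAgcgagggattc
NARS: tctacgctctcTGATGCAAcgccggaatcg
TARS: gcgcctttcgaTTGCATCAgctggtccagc
YARS2: atccacactgcTGATGGAAaaattaagttt

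A level below is the log2 processed intensity of a gene's brightest probe minus the 75th percentile of its array, so that 0 is the brightness of that percentile and each unit is a doubling. The 75th percentile of intensity was 667 to 838 on control arrays and 441 to 631 on knockdown arrays, and 59.8% to 64.6% of spots were well above background, depending on the array. Only arrays are compared, since levels of different probes cannot be set against each other. The arrays of 1 vector were close for shControl, shBEX2-1 and shBEX2-2, where 115 to 361 genes had log2 levels over 1 apart on the 2 arrays. The shNontarget arrays were that far apart at 7135 genes, 3 of them synthetases. BEX2 itself read -3.36 and -3.91 in shControl, -2.70 and -3.77 in shNontarget, -5.21 and -5.54 in shBEX2-1 and -4.92 and -4.60 in shBEX2-2 cells (log2 fold change -1.63, standard error 0.32, adjusted p = 0.0116, limma). It was not well above background on the shBEX2-1 arrays. Its readings there averaged 3.83-fold below control cells (log2 fold change -1.94, standard error 0.37), an estimate from dim readings and no lower bound. On both shBEX2-2 arrays it was well above background, and its fall in that subline alone did not pass the test (log2 fold change -1.32, adjusted p = 0.0812, limma). All 5 bile duct epithelial markers (KRT7, KRT19, EPCAM, SOX9, CDH1) passed the background filter. Markers of other cell types were mixed: ALB, TTR, COL1A2 and PECAM1 were above background on none of the 8 arrays. SERPINA1 (hepatocyte), COL1A1 (fibroblast), VWF and CDH5 (endothelium) were above it on all 8, and APOA1 (hepatocyte) on 6. SERPINA1 read 1.96 to 3.04. Of 3 immune markers, CD68 rose (log2 fold change 0.99, adjusted p = 0.0474, limma) and the summed immune level was 0.337 to 0.583 on control and 0.772 to 1.12 on knockdown arrays, in units of the 75th percentile. That sum includes CD68, which read above PTPRC on every array, and is no separate result. PTPRC did not pass the test (adjusted p = 0.349, limma), and CD3E was above background on at most 3 arrays. No other marker passed the test, and the part of these markers in the changes below was not tested.

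After BEX2 knockdown, 9 of the 35 synthetases fell and none rose, and the 9 are cytosolic enzymes: IARS, AARS, CARS, GARS, SARS, YARS, EPRS, MARS and NARS. Their levels dropped between 1.44-fold and 2.41-fold. Of all genes tested, 6.25% fell and 6.68% rose by the same rule (limma, Benjamini-Hochberg adjusted p under 0.05 over all 20464 genes). Cytosolic enzymes thus gave 9 falls among 20, and mitochondrial enzymes gave 0 among 15 (1 at an unadjusted p under 0.05, 0 by rank product, and by the methods' t-test 1, CARS2, at its own unadjusted threshold and 0 after Benjamini-Hochberg adjustment). The mitochondrial count was not 0 in every setting: CARS2 fell after quantile normalization (adjusted p = 0.0479, limma) and normexp background correction (adjusted p = 0.0411, limma). With only shControl as control, CARS2, FARS2, IARS2, PARS2 and WARS2 fell and AARS2 and VARS2 rose, beside 16.3% and 17.2% of all genes. The median log2 fold change was -0.48 over the cytosolic enzymes and -0.11 over the mitochondrial ones, beside 0.03 over all genes. In bulk RNA, fewer cells with a transcript and less of it per cell cannot be told apart.

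**Figure D1:**
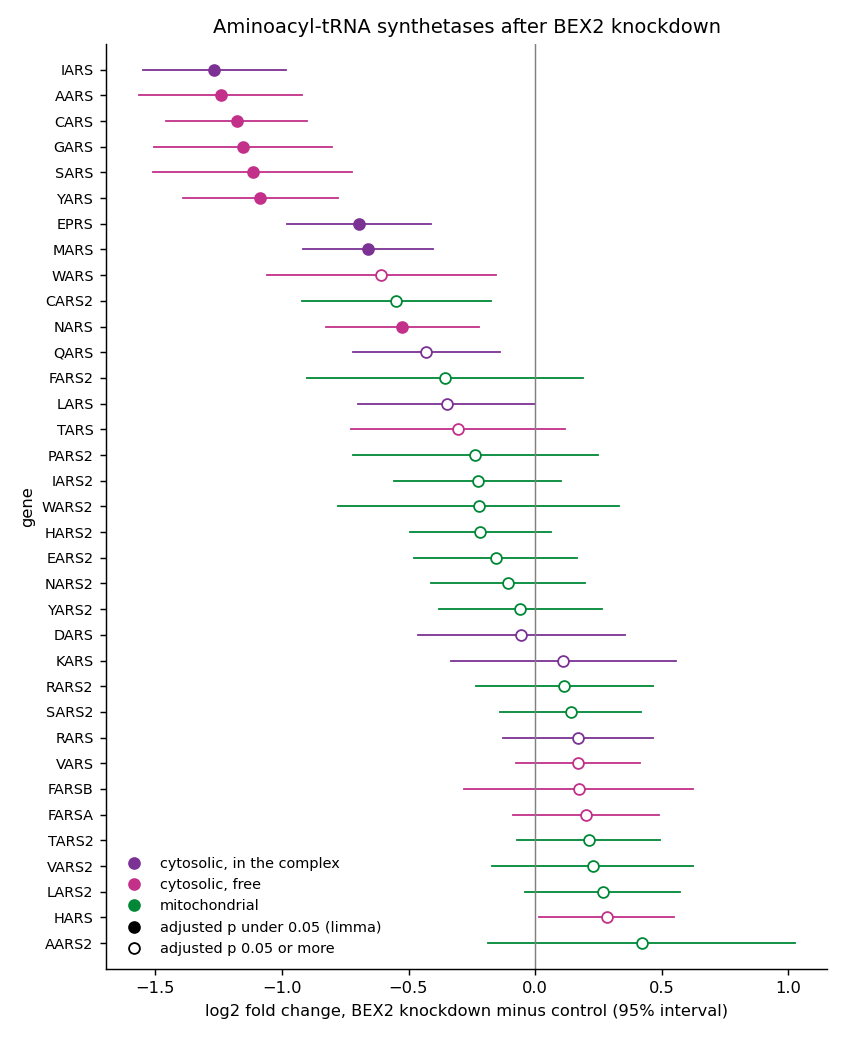
Log2 fold change of each of the 35 measured synthetases, BEX2 knockdown (4 arrays) minus control (4 arrays), as points with 95% intervals from limma, ordered by size and coloured by group. Filled points passed an adjusted p of 0.05: the 9 filled points lie between -1.27 and -0.52 and all are cytosolic.

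The count depended on the shNontarget arrays. Without shNontarget replicate 2 it was 17, of which 16 fell and 1 rose (AARS2), and without shNontarget replicate 1 it was 10, all lower, while the share of all genes called in either direction went from 12.9% to 21.0% and 23.1%. Without any 1 of the other arrays it was 8, all lower. With only shControl as control it was 20, of which 17 fell and 3 rose (AARS2, HARS and VARS2), beside 33.4% of all genes. With only shNontarget as control it was 4 (IARS, AARS, CARS and YARS), beside 1.67% of all genes. By the methods' t-test it was 14 at that test's own threshold, 12 lower and 2 higher (HARS and VARS), beside 26.5% of all genes, and 10 after Benjamini-Hochberg adjustment. By rank product, the method the study used for its arrays, it was 2 (IARS and AARS).

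Among members of the multi-tRNA synthetase complex, IARS, MARS and EPRS fell, 3 of 8. IARS, which charges isoleucine, read 3.62 and 3.61 in shControl, 3.89 and 3.51 in shNontarget, 2.28 and 2.38 in shBEX2-1 and 2.41 and 2.50 in shBEX2-2 cells. Every knockdown array lay below every control array, by more than 1 on the log2 scale. The log2 fold change was -1.27 (95% interval -1.55 to -0.99, adjusted p = 0.00103, limma), which is 2.41-fold lower. The probe lies at chr9:94972871-94972930 of hg19, and the other 2 IARS probes, dimmer and not used in the fit, also read lower, by -0.48 and -0.91.

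MARS, the methionine enzyme, which also charges the initiator transfer RNA, read 3.41 and 3.51 in shControl, 3.59 and 3.67 in shNontarget, 2.96 and 2.93 in shBEX2-1 and 2.80 and 2.85 in shBEX2-2 cells. The groups did not overlap, and the log2 fold change was -0.66 (95% interval -0.91 to -0.40, adjusted p = 0.00699, limma). A dimmer second MARS probe differed by -0.90. EPRS joins the glutamate and proline enzymes in 1 protein. Its levels were 3.99 and 4.02 in shControl, 4.29 and 3.92 in shNontarget, 3.31 and 3.42 in shBEX2-1 and 3.27 and 3.42 in shBEX2-2 cells, again without overlap (log2 fold change -0.70, 95% interval -0.98 to -0.41, adjusted p = 0.0085, limma). EPRS and MARS were no longer called with only shNontarget as control (adjusted p = 0.0905 and 0.0662, limma).

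The remaining 5 complex members did not pass the test. QARS, the glutamine enzyme, came closest: its 4 knockdown arrays read 4.25 to 4.52 and its control arrays 4.64 to 4.91, with no overlap (log2 fold change -0.43, adjusted p = 0.0601, limma). Its adjusted p was under 0.05 without either shNontarget array (0.0488 without replicate 1 and 0.0146 without replicate 2). LARS, the leucine enzyme, had a log2 fold change of -0.35 (adjusted p = 0.178), and DARS, KARS and RARS, for aspartate, lysine and arginine, lay between -0.05 and 0.17. The 95% intervals of DARS, KARS and RARS together ran from -0.46 to 0.56, and none reached the estimates for IARS, EPRS or MARS.

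Of 12 cytosolic enzymes outside the complex, 6 fell. AARS, the alanine enzyme, read 1.08 and 1.06 in shControl, 1.40 and 1.51 in shNontarget, -0.02 and 0.15 in shBEX2-1 and -0.12 and 0.08 in shBEX2-2 cells. Its log2 fold change was -1.24 (95% interval -1.56 to -0.92, adjusted p = 0.00147, limma). The groups lay far apart, with the shNontarget arrays highest. The probe is at chr16:70287876-70287935 of hg19. The cysteine enzyme CARS gave 0.33 on both shControl arrays, 0.49 and 0.30 in shNontarget, -0.62 and -0.76 in shBEX2-1 and -0.97 and -0.90 in shBEX2-2 cells. The control arrays were close together, and the log2 fold change was -1.18 (standard error 0.12, adjusted p = 0.00118, limma).

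GARS, the glycine enzyme, supplies both compartments from 1 gene, so it is counted here as cytosolic by name only. It read 2.29 and 2.27 in shControl, 2.58 and 1.95 in shNontarget, 1.14 and 1.23 in shBEX2-1 and 0.88 and 1.20 in shBEX2-2 cells (log2 fold change -1.15, standard error 0.16, adjusted p = 0.0028, limma). The shNontarget arrays were the farthest apart, yet both lay above all knockdown arrays. KARS, the other enzyme that serves both compartments from 1 gene, read 1.59 to 2.52 on control and 2.21 to 2.37 on knockdown arrays, so its groups overlapped.

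SARS, the serine enzyme, read 4.30 on both shControl arrays, 4.82 and 4.05 in shNontarget, 3.34 on both shBEX2-1 arrays and 3.09 and 3.24 in shBEX2-2 cells. YARS, the tyrosine enzyme, read 0.97 and 0.92, then 1.34 and 0.88, then -0.09 and 0.06, and last -0.18 and -0.02 in the same order of vectors. Both sets of knockdown arrays stood below all control arrays. The log2 fold change was -1.11 for SARS (standard error 0.17, adjusted p = 0.0047, limma) and -1.08 for YARS (standard error 0.14, adjusted p = 0.00204, limma). NARS, the asparagine enzyme, fell least: 2.62 and 2.59 in shControl, 2.93 and 2.40 in shNontarget, 2.09 and 2.05 in shBEX2-1 and 2.16 and 2.14 in shBEX2-2 cells. The call (log2 fold change -0.52, standard error 0.13, adjusted p = 0.0335, limma) was lost, with adjusted p from 0.0834 to 0.0943, when any 1 of the shControl or BEX2-knockdown arrays was left out.

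**Figure D2:**
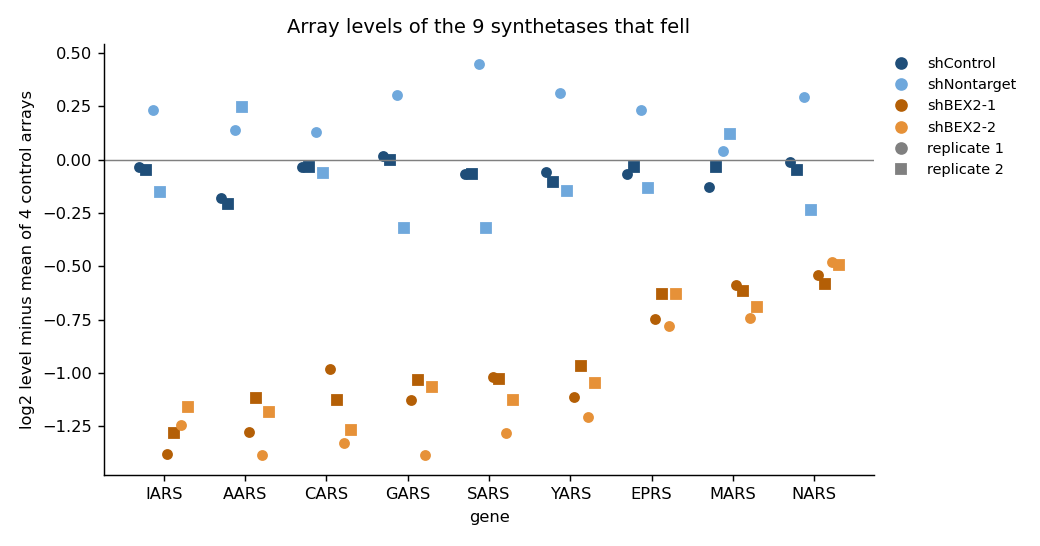
Log2 level of the 9 synthetases that fell on each of the 8 arrays, minus the mean of the gene's 4 control arrays; colour gives the vector, circles replicate 1 and squares replicate 2. For each gene the 4 knockdown arrays lie below the 4 control arrays, and shNontarget replicate 1 (pale blue circle) is the highest array for 7 of the 9 genes, with shNontarget replicate 2 highest for AARS and MARS.

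WARS, the tryptophan enzyme, which interferon is known to induce, did not pass the test in spite of a log2 fold change of -0.61 (95% interval -1.06 to -0.16, adjusted p = 0.081, limma). It read 2.37 and 2.31 in shControl, 2.80 and 1.88 in shNontarget, 1.92 and 1.88 in shBEX2-1 and 1.47 and 1.65 in shBEX2-2 cells, so that shNontarget replicate 2 reached into the knockdown range. Without that array its log2 fold change was -0.76 (adjusted p = 0.0147). Beside it, 12 interferon response genes had a median log2 fold change of 0.66 in shBEX2-1 and -0.64 in shBEX2-2 cells, and their part in the WARS level was not tested.

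The last 5 free cytosolic enzymes, TARS, VARS, FARSA, FARSB and HARS, for threonine, valine, phenylalanine (the alpha and beta subunits) and histidine, ranged from -0.30 (TARS) to 0.28 (HARS). None passed the test. HARS was the only member whose knockdown arrays all lay above its control arrays: 2.39 to 2.58 against 2.03 to 2.37 (log2 fold change 0.28, 95% interval 0.02 to 0.55, adjusted p = 0.156, limma). Over all genes, 11.5% stood wholly above their controls and 10.6% wholly below. Among the 35 synthetases 1 stood above and 11 stood below: the 9 that fell, QARS and the mitochondrial CARS2. For a single gene such a separation has a two-sided exact permutation p of 0.0286, the smallest that 4 arrays against 4 allow. Without shNontarget replicate 2, which leaves 4 arrays against 3, the separated members numbered 23, of which 19 were below and 4 above, beside 17.2% and 19.1% of all genes.

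None of the 15 measured mitochondrial enzymes passed the test. CARS2, which charges cysteine in mitochondria, had the largest log2 fold change of them, and read 4.76 and 4.68 in shControl, 5.15 and 5.30 in shNontarget, 4.47 and 4.32 in shBEX2-1 and 4.46 and 4.44 in shBEX2-2 cells. Its knockdown arrays lay below all controls, closest to shControl, and its log2 fold change was -0.55 (95% interval -0.92 to -0.17, adjusted p = 0.0617, limma). With only shControl as control the change was smaller but called, at -0.29 (adjusted p = 0.0306), and the 4-vector model gave an adjusted p of 0.0262. It was also called after quantile normalization (-0.63) and normexp background correction (-0.60).

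AARS2, the mitochondrial alanine enzyme, pointed the other way from AARS. It read 0.37 and 0.26 in shControl, -0.09 and 1.33 in shNontarget, 0.86 and 0.76 in shBEX2-1 and 0.97 and 0.96 in shBEX2-2 cells. The shNontarget arrays bracketed every other array, and the change of 0.42 (95% interval -0.18 to 1.02) did not pass the test (adjusted p = 0.356, limma). Without shNontarget replicate 2 it was 0.71 (adjusted p = 0.009).

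FARS2, for phenylalanine, read -0.82 and -0.89 in shControl, -0.53 and -1.70 in shNontarget, -1.57 and -1.20 in shBEX2-1 and -1.40 and -1.19 in shBEX2-2 cells (log2 fold change -0.36, adjusted p = 0.388, limma). Here too 1 shNontarget array, replicate 2, lay below all knockdown arrays, and without it the change was -0.60 (adjusted p = 0.0243). LARS2, the mitochondrial leucine enzyme, read -0.40 and -0.27 in shControl, -0.56 and -0.77 in shNontarget, -0.28 and -0.25 in shBEX2-1 and -0.25 and -0.15 in shBEX2-2 cells, with overlapping groups (log2 fold change 0.27, adjusted p = 0.243, limma). The other 11 measured mitochondrial enzymes lay between -0.24 (PARS2, for proline) and 0.23 (VARS2, for valine). In order between them came IARS2 (-0.23), WARS2 (-0.22), HARS2 (-0.22), EARS2 (-0.15), NARS2 (-0.11), YARS2 (-0.06), RARS2 (0.12), SARS2 (0.14) and TARS2 (0.21), as log2 fold changes. The probe of MARS2, the mitochondrial methionine enzyme, was well above background on 0 of 8 arrays, and no fold is given.

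Averaged over the 20 cytosolic enzymes, the log2 level was 2.62 and 2.59 on the shControl arrays, 2.84 and 2.43 on the shNontarget arrays, 2.17 and 2.18 on the shBEX2-1 arrays and 2.06 and 2.15 on the shBEX2-2 arrays. The mean was 2.62 ± 0.17 (SD, n = 4) in control and 2.14 ± 0.053 (SD, n = 4) in knockdown cells. Over the 15 mitochondrial enzymes it was 0.742 ± 0.042 (SD, n = 4) in control and 0.692 ± 0.036 (SD, n = 4) in knockdown cells, and the arrays overlapped. The median change of the cytosolic enzymes was 0.37 below that of the mitochondrial ones, a difference given without a test. It ran from -0.45 to -0.32 over the 16 alternative settings that could change it.

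**Figure D3:**
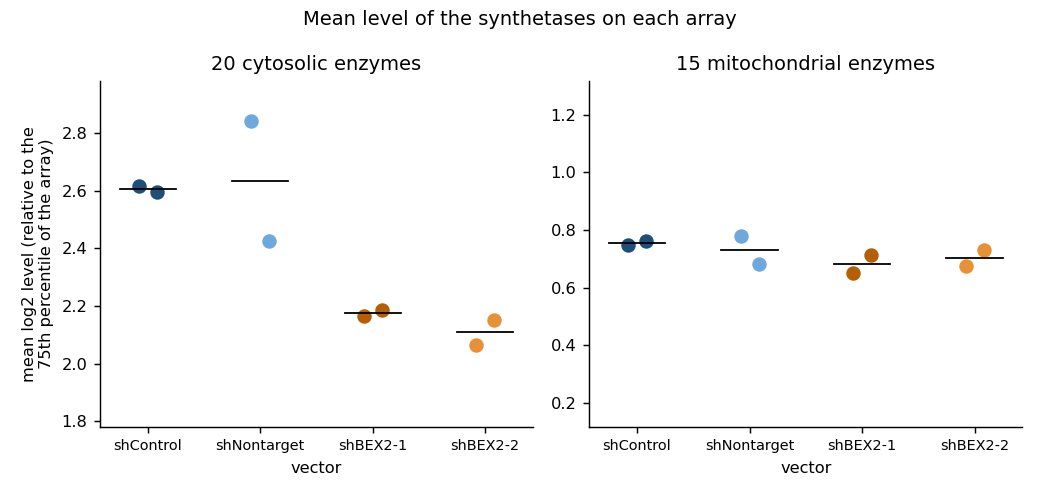
Mean log2 level, relative to the 75th percentile of the array, of the 20 cytosolic (left) and 15 mitochondrial (right) enzymes on each array, with a bar at the mean of each vector, on axes that span the same range. On the left the knockdown arrays (2.06 to 2.18) lie below the control arrays (2.43 to 2.84), and on the right the groups overlap.

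For 12 amino acids the cytosolic and the mitochondrial enzyme were both measured under names that differ only by the final 2. The cytosolic enzyme had the lower log2 fold change in 10 of these pairs, with a median difference of -0.57. The widest gaps were -1.66 for alanine (AARS, AARS2), -1.26 for serine (SARS, SARS2), -1.04 for isoleucine and -1.03 for tyrosine. Histidine was the opposite, with HARS 0.50 above HARS2, and arginine and valine differed by no more than 0.06. By structural class, 4 of 17 class I and 4 of 17 class II enzymes fell, and EPRS, which holds 1 domain of each, was set in neither.

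**Figure D4:**
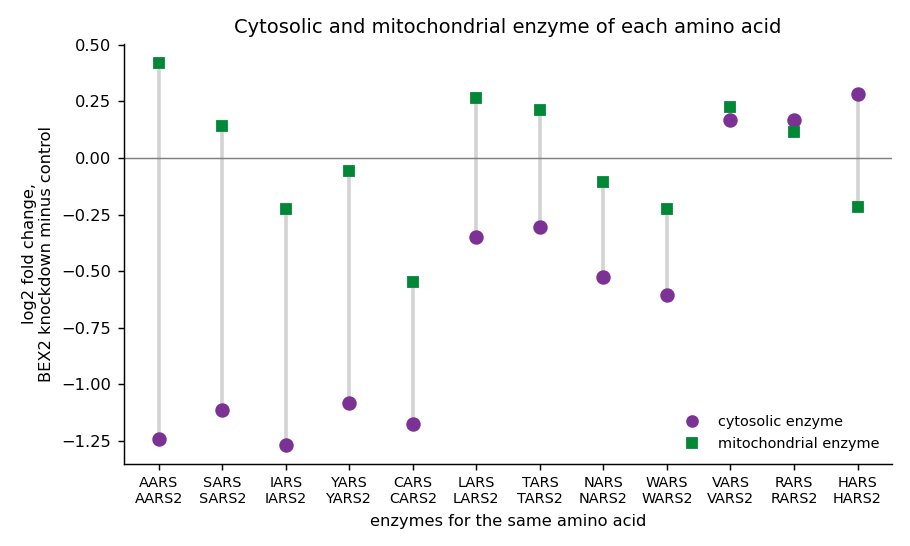
Log2 fold change (BEX2 knockdown minus control) of the cytosolic (circle) and the mitochondrial (square) enzyme of 12 amino acids, joined by a line and ordered by their difference. The circle lies below the square in 10 of 12 pairs, and the gap runs from -1.66 (alanine) to 0.50 (histidine).

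Set against the promoter windows, 6 of the 8 members that fell and have a window held the TGATGNAA letters (AARS, CARS, GARS, IARS, MARS and NARS), while EPRS and SARS did not and YARS had no window. Of the 22 other members with a window, 2 held them: TARS, with a log2 fold change of -0.30, and YARS2, with -0.06. These are descriptions of the letters, and no binding was measured.

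The sublines were then taken one at a time against the mean of both control vectors, in a model of the 4 vectors. Both comparisons share the control arrays. In shBEX2-1 cells 6 synthetases fell (IARS, AARS, CARS, GARS, YARS and MARS) and none rose, beside 3.59% of all genes that fell and 3.38% that rose. In shBEX2-2 cells 8 fell, the same 6 with SARS and EPRS, and none rose, beside 4.81% and 4.85% of all genes. For IARS the log2 fold change was -1.33 and -1.20 in shBEX2-1 and shBEX2-2, and for AARS it was -1.20 and -1.29. CARS gave -1.06 and -1.30, GARS -1.08 and -1.23, YARS -1.04 and -1.13, and SARS -1.02 (adjusted p = 0.05002, just over the threshold) and -1.20 (adjusted p = 0.025, limma).

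With 2 arrays a subline these counts moved with every array left out. Without shNontarget replicate 1 they were 21 in shBEX2-1 (13 lower, 8 higher) and 22 in shBEX2-2 cells (15 lower, 7 higher), and without replicate 2 they were 23 (19 lower, 4 higher) and 28 (21 lower, 7 higher). In these comparisons between 51.5% and 54.5% of all genes were called. Without any other array the counts were 0 to 1 and 0 to 4, given without a share of all genes and so not read as a result about the synthetases. With the replicate number as a block the calls of GARS and MARS in shBEX2-1 and of EPRS in shBEX2-2 cells were lost. This left 4 and 7, all lower, beside 4.97% and 7.80% of all genes called in either direction. With only shNontarget as control both were 0. Between the sublines no synthetase passed the test (limma, 0 at an unadjusted p under 0.05), beside 0.00977% of all genes. The difference, shBEX2-1 minus shBEX2-2, ran from -0.31 (EARS2) to 0.34 (WARS). For the 9 that fell, its 95% intervals reached from -0.55 to 0.81, so differences of that size lie within the error.

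Between the control vectors no synthetase passed the test either (limma, 3 at an unadjusted p under 0.05), beside 0.00% of all genes. The log2 difference, shNontarget minus shControl, ran from -0.46 (PARS2) to 0.51 (CARS2). With 1 shNontarget array left out, the vector has no spread of its own and the fit assumes that the lone array varies like the other vectors. It then gave 16 members (5 higher, 11 lower) without replicate 1 and 15 (13 higher, 2 lower) without replicate 2, beside 45.1% and 46.2% of all genes. The 2 shNontarget arrays differed by a median of 0.41 over the cytosolic enzymes and 0.42 over the mitochondrial ones, taken without sign, against 0.71 over all genes. Replicate 2 was the lower by a signed median of -0.38 over the cytosolic enzymes, and over the mitochondrial ones the differences went both ways (signed median 0.07).

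Around the synthetases, the scaffold proteins of the complex did not pass the test: AIMP1, AIMP2 and EEF1E1 had log2 fold changes of -0.06, -0.06 and 0.50, and 0 of 3 passed the test (limma, 0 at an unadjusted p under 0.05). Of 3 related enzymes (AARSD1, SEPSECS and PSTK), 0 passed (1 at an unadjusted p under 0.05), with a median of -0.33. Of 4 genes that complete mitochondrial charging by another route, 1 rose, GATC, a subunit of the amidotransferase that makes mitochondrial glutaminyl-tRNA. It read -2.39 on both shControl arrays, -1.95 and -2.50 in shNontarget, -1.43 and -1.48 in shBEX2-1 and -1.26 on both shBEX2-2 arrays (log2 fold change 0.95, adjusted p = 0.00582, limma). Of 4 genes that deliver charged transfer RNA, 1 fell, the elongation factor EEF1A2 (log2 fold change -1.18, adjusted p = 0.0298, limma), while TUFM, its mitochondrial counterpart, stood at -0.04. EEF1A2 read -0.34 on shNontarget replicate 2, within the range of its knockdown arrays. Its call was lost without either shControl array, without any 1 knockdown array, with only shNontarget as control, and by rank product or the methods' t-test after adjustment. The call of GATC was lost with only shNontarget as control and by rank product. Of 7 genes of tRNA maturation 0 passed (3 at an unadjusted p under 0.05, median -0.15), and of 12 interferon response genes 0 passed (0 at an unadjusted p under 0.05, median -0.04).

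The ATF4 response list had the lowest median of the 7 lists, at a log2 fold change of -0.97. Of its 19 measured genes 15 fell and none rose, beside 6.25% of all genes that fell and 6.68% that rose. In shBEX2-1 cells alone 8 fell (median -0.81), beside 3.59% of all genes, and in shBEX2-2 cells 15 (median -1.27), beside 4.81%. Between the sublines 0 passed the test (limma, 7 at an unadjusted p under 0.05). The list was chosen with earlier results of these data known. The largest falls were those of NUPR1 (-2.67), a stress-induced chromatin protein, PHGDH (-2.001), the first enzyme of serine synthesis, SESN2 (-1.89), an inhibitor of mTORC1 signalling, and ASNS (-1.85), asparagine synthetase. ASNS makes asparagine itself and is no tRNA synthetase. PHGDH read 3.12 and 2.999 in shControl, 3.79 and 3.21 in shNontarget, 1.71 and 1.65 in shBEX2-1 and 0.81 and 0.94 in shBEX2-2 cells. The mRNA of ATF4 itself had a log2 fold change of -0.69 (adjusted p = 0.047, limma). The count of the list was 6 with only shNontarget as control, 9 without shBEX2-2 replicate 1 and 9 by rank product.

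**Figure D5:**
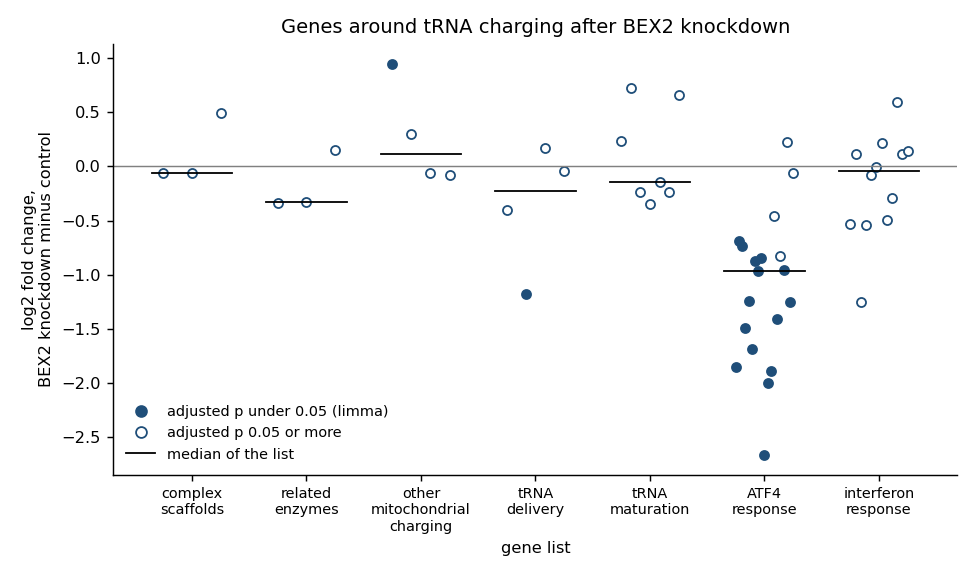
Log2 fold change (BEX2 knockdown minus control) of the genes of 7 lists around tRNA charging, with a bar at each list's median; filled points passed an adjusted p of 0.05 in limma. The ATF4 response list holds 15 filled points below 0, tRNA delivery holds 1 below 0 (EEF1A2) and other mitochondrial charging holds 1 above 0 (GATC).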

How the data were processed

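RNA of HuCCT1 cells with 4 vectors was measured on 8 Agilent arrays. The authors deposited, for each spot, the processed intensity of Agilent Feature Extraction 10.7.3.1, background-subtracted and detrended within the array, with no scaling between arrays. Control spots were left out, as were non-uniform spots, and replicate spots were averaged. Log2 intensities were taken relative to the 75th percentile of each array, probes were kept if at least 4 of 8 arrays read them well above background, and the brightest probe by the mean of 8 arrays stood for a gene. Of 39 synthetase probes, 35 represented a gene. Groups followed the labels. Tests used limma 3.58.1 (lmFit, eBayes with trend) in R 4.3.3, with Benjamini-Hochberg adjustment over all genes tested. They were also run on simulated data with independent noise, equal on all arrays, and no effect of a vector. That run cannot show whether calls hold under the spread of the shNontarget arrays. The number of arrays limits the precision. Members and lists were chosen with earlier results of these data known. Every synthetase is named; array values are given for called members and for the 5 cytosolic and 4 mitochondrial members with the largest change, and genes of other lists are named where past the threshold, at most 4 a list. In the names of deposited files each replicate number has a day of its own. Replicate numbers were paired only in an alternative fit with the replicate number as a block, and the reported fits held no term for the day. The correlations of replicate differences between vectors ran only from -0.063 to 0.26. Some genes and 1 sequence are not reported here. Probe positions are hg19, as the files give them.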

Additional observations from a re-analysis of the deposited data

Results flagged for a closer look

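In groups of 4 arrays, 8 of 70 groups (35 synthetases in control and in knockdown cells) had 1 array whose gap to its nearest neighbour took more of the group's range than Dixon's 95% critical value allows. Chance alone flags about 1 in 20 groups. On shNontarget replicate 1, CARS (0.848 of the range), FARSA (0.895), RARS (0.881) and YARS2 (0.834) stood above the other control arrays. On shNontarget replicate 2, IARS2 (0.875), PARS2 (0.886) and WARS2 (0.850) stood below them. On shBEX2-1 replicate 1, NARS2 (0.859) stood below the other knockdown arrays, at -0.32 against -0.10 to -0.06.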

How the results depend on the processing

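The cytosolic minus mitochondrial difference kept its direction under every alternative that could change it. Quantile normalization, normexp background correction, the value table of the series, another filter, the mean of probes, no trend, a random block for vector, a model of the 4 vectors and the methods' t-test after Benjamini-Hochberg adjustment left the count of called synthetases in the knockdown comparison between 9 and 12, within 1.5 times of the 9 reported. At its own unadjusted threshold the methods' t-test gave 14. Rank product gave 2. With only shControl as control the counts were 20 (knockdown), 23 (shBEX2-1) and 24 (shBEX2-2), of which 3, 6 and 5 were higher, beside 33.4%, 43.6% and 44.1% of all genes. In that setting 27 members had separate groups, in either direction. With 4 arrays against 2, separation is easier to reach for any gene, so the 27 are not read as a result about the members. With only shNontarget they were 4, 0 and 0. Leaving out 1 array gave 8 to 17 (knockdown), 0 to 23 (shBEX2-1), 0 to 28 (shBEX2-2), 0 to 2 between sublines and 0 to 16 between control vectors, with 12 to 23 separated members. The 23, without shNontarget replicate 2, are given above with the shares of all genes. Fewer arrays also make separation easier for any gene. With the replicate block, in which arrays are paired by replicate number, the counts were 9, 4 and 7, and no call of a member in the knockdown comparison changed. Signs turned in 8 cases: KARS (-0.020) and YARS2 (0.049) with only shControl, DARS (0.022) and VARS2 (-0.016) with only shNontarget, DARS (0.065), RARS2 (-0.0038) and YARS2 (0.062) without shNontarget replicate 1, and KARS (-0.089) without shNontarget replicate 2. With 1 array left out, the range was -0.22 to 0.065 for DARS, -0.089 to 0.22 for KARS, -0.0038 to 0.20 for RARS2 and -0.11 to 0.062 for YARS2. VARS2, at 0.23 in the reported comparison, rose with only shControl as control (0.47, adjusted p = 0.0146, limma), and that call was absent under the other alternatives of the knockdown comparison. Why these settings differ was not tested.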
